A study of Rattus norvegicus with 6 samples.

Results

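The 32 genes described here make sterols and fatty acids or control that synthesis. They comprise 8 genes of the mevalonate steps, 11 genes of the steps between squalene and cholesterol, 5 genes of the sterol regulatory element-binding protein (SREBP) system, 7 genes of fatty acid synthesis and the sterol carrier gene Stard4. Members were taken by gene symbol from the deposited count table, where all 32 were found among 26981 features, and all 32 were among the 16447 features with enough counts to be tested. The rats were wild-type Sprague-Dawley males aged 6 weeks at the start, and RNA was taken from articular cartilage of their right knees. In the loaded group (3 libraries) the right knee and ankle were compressed along the limb axis under anaesthesia every 2 days for 4 weeks. A session had 40 cycles of 10 s, with 9 s at a base of 5 N and a peak of 20 N for 0.5 s. The control group (3 libraries) is the study's blank group, and its libraries were placed by their titles and the study design, since their labels name no treatment. The whole experiment had 70 rats in 7 groups, and the series title places the loading in the setting of knee osteoarthritis. Nothing in the labels ties a library to its own animal, and p-values therefore reflect library-to-library spread only, part of which may be technical.

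Cholesterol is built from acetyl-CoA. The mevalonate steps join acetyl units into isoprenoid pyrophosphates, farnesyl pyrophosphate is the branch point to squalene or to protein prenylation, and the later enzymes turn squalene into lanosterol and then cholesterol. SREBP transcription factors switch on the genes of both sterol and fatty acid synthesis. They are held in the endoplasmic reticulum by the INSIG proteins while sterols are plentiful, and are carried by SCAP to the Golgi for cleavage when sterols run short. Chondrocytes and marrow cells both use the pathway, and fat and liver are its best-known sites of fatty acid synthesis.

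Library totals were 28435307 to 33616096 counts in the loaded and 34527264 to 40332904 counts in the control libraries. Levels are given as CPM, counts relative to TMM-scaled library totals, and a gene with 0 counts could still stand at up to 0.0744 to 0.106 CPM, by library, a limit for counting error only. All of 16 chondrocyte genes were detected, which at this depth does not show that cartilage was the main source of RNA. Their summed share was 0.290% to 0.317% of counts in loaded and 0.2% to 0.216% in control libraries. Erythroid genes took 13.1% to 14.2% of counts in loaded and 13.8% to 14.9% in control libraries. Neutrophil and marrow myeloid genes took 3.45% to 4.04% in loaded and 4.76% to 5.08% in control libraries. The libraries thus held much RNA of other cells. In such bulk RNA, fewer cells of a type and less RNA per cell cannot be told apart.

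Loaded knees carried less RNA for most steps of sterol synthesis and for the fatty acid synthesis genes Fasn and Scd, and more for Ggps1, Insig2, Acacb and Acss2. Of the 32 members 16 fell and 4 rose at an adjusted p under 0.05 (quasi-likelihood test of edgeR, Benjamini-Hochberg adjustment over all 16447 features). Among all features 35.8% were called, 18.0% of them lower and 17.9% higher as shares of those tested, whereas 62.5% of the members were called, 50% lower and 12.5% higher. The share called higher was thus below the background and the share called lower was above it. The median log2 fold change of loaded over control was -0.32 over the members, with a range of -0.75 to 0.60, beside 0 over all features tested. All 3 loaded libraries lay below all 3 control libraries in CPM for 18 members and above them for 4, where the background was 23.9% in each direction and 47.9% in either. These counts hold on the TMM scale. In the authors' FPKM, a level per length, the groups of Pmvk, Mvd, Fdft1 and Acly, all among the 18, overlapped. Changes were moderate in size: no called member fell by more than 40.4% or rose by more than 52%.

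**Figure D1:**
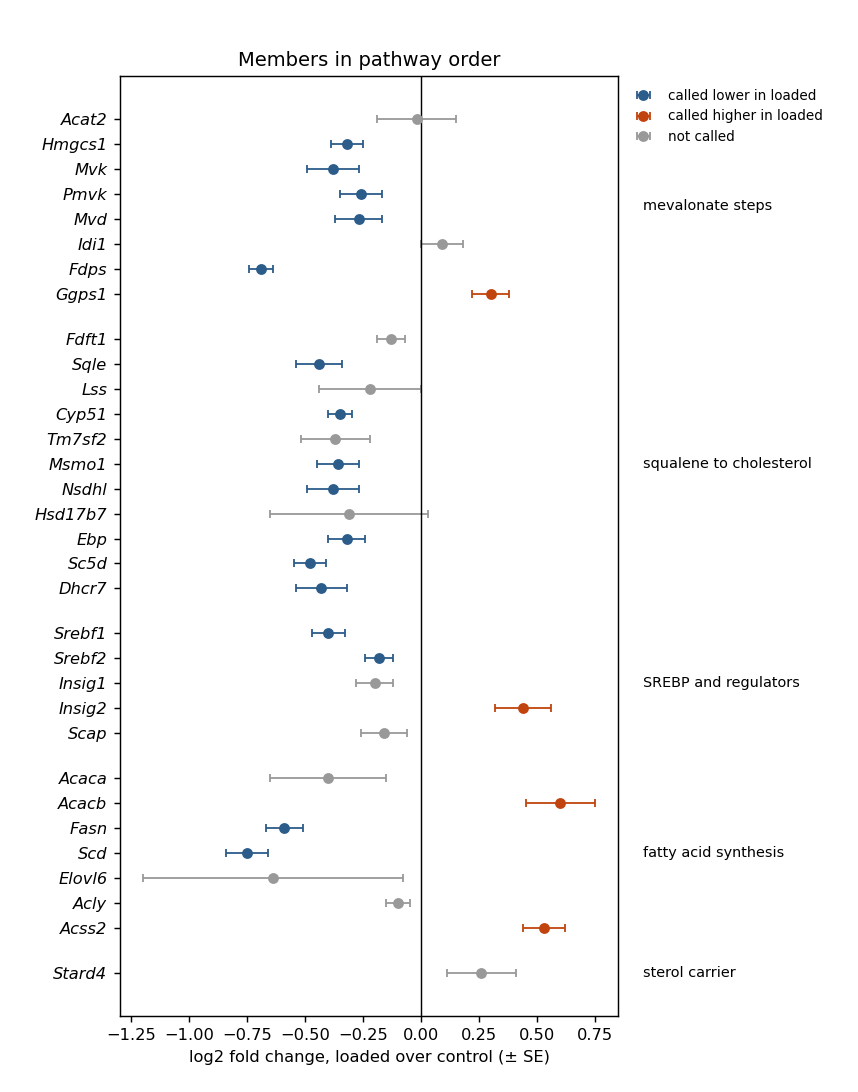
Log2 fold change of each member, loaded over control, with its standard error (x axis), in pathway order from top to bottom (y axis); blue points were called lower in loaded, orange points higher, and grey points were not called. Most points of the mevalonate and squalene-to-cholesterol groups lie left of 0, with Fdps at -0.69, while Ggps1, Insig2, Acacb and Acss2 lie right of it.

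Of the 8 mevalonate genes 5 fell and 1 rose, with a median of -0.26. That is 62.5% lower, above the 18.0% over all features, and 12.5% higher, below their 17.9%. The largest change was that of farnesyl pyrophosphate synthase (Fdps, ENSRNOG00000043377), which makes the last isoprenoid before the branch to squalene. Fdps stood at 50.1, 52.8 and 50.3 CPM in loaded libraries 1 to 3, against 82.4, 82.4 and 82.1 CPM in control libraries 1 to 3. The groups were far apart compared with their spread, and the fall was 37.9% (log2 fold change -0.69 ± 0.05 SE, adjusted p = 5.85e-08, edgeR). Geranylgeranyl pyrophosphate synthase (Ggps1), which extends farnesyl pyrophosphate for protein prenylation, went the other way. Its level was 26.8 ± 1.03 CPM in loaded and 21.8 ± 1.34 CPM in control libraries (SD, n = 3 each), a rise of 0.30 ± 0.08 (log2 ± SE, adjusted p = 0.00841), and without control 3 the call was lost (adjusted p = 0.0582).

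The enzymes that lead up to Fdps differed less. HMG-CoA synthase (Hmgcs1), which condenses acetoacetyl-CoA with acetyl-CoA, fell by 0.32 ± 0.07 on the log2 scale, at 28 ± 0.55 CPM in loaded and 35.0 ± 0.832 CPM in control libraries (adjusted p = 0.00128, edgeR). The kinases that phosphorylate mevalonate in turn, Mvk and Pmvk, fell by 0.38 ± 0.11 and 0.26 ± 0.09 (adjusted p = 0.0162 and 0.0426). The decarboxylase Mvd, which makes isopentenyl pyrophosphate, fell by 0.27 ± 0.10 (adjusted p = 0.0406). In these 3 genes all loaded libraries lay below all control libraries, at 9.29 to 10.8 against 12.2 to 13.9 CPM for Mvk, 18 to 21.5 against 22 to 24.6 CPM for Pmvk, and 15.7 to 18.7 against 19.7 to 22.2 CPM for Mvd. In the authors' FPKM only Mvk stayed apart. There Pmvk overlapped at 15.5 to 19.3 against 18.2 to 20.3, and Mvd at 8.7 to 11 against 10.5 to 11.8, loaded against control. The calls of these 3 genes were not stable when single libraries were left out, though their differences stayed below 0. Over all alternatives they were -0.46 to -0.31 for Mvk, -0.34 to -0.18 for Pmvk and -0.33 to -0.19 for Mvd. Mvk lost its call without loaded 1 (adjusted p = 0.05) and without control 2 (adjusted p = 0.0765), Pmvk without any library but loaded 3 (adjusted p = 0.0641 to 0.187), and Mvd without any library but loaded 1 (adjusted p = 0.0526 to 0.166). The group's 5 falls thus became 3 without loaded 1, loaded 2, control 1 or control 3, and 2 without control 2. Scaling to library totals also ended the calls of Mvk (adjusted p = 0.0567), Pmvk (0.17) and Mvd (0.169), and DESeq2 those of Pmvk (0.0721) and Mvd (0.0645). The isomerase Idi1 was at 25.7 ± 1.67 CPM in loaded and 24.2 ± 2.04 CPM in control libraries (adjusted p = 0.475). The cytosolic thiolase Acat2, which opens the pathway, was at 5.88 ± 1.01 and 5.97 ± 0.566 CPM in loaded and control libraries (log2 difference -0.02 ± 0.17, adjusted p = 0.935). Neither gene was called, and their groups overlapped.

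Of the 11 genes between squalene and cholesterol 7 fell and none rose, with a median of -0.36 and all 11 fold changes below 0, from -0.48 to -0.13. That is 63.6% lower and 0% higher, beside 18.0% and 17.9% over all features, of which 49.6% had a fold change below 0. With every fold change below 0, no threshold could give a rise by edgeR, so its count of 0 adds nothing to this. DESeq2 and limma-voom, run on the same counts, also called no rise. Squalene epoxidase (Sqle, ENSRNOG00000009550), which adds the oxygen that later becomes the hydroxyl group of cholesterol, stood at 13.6, 12.9 and 14.3 CPM in loaded 1 to 3, against 19.1, 17.7 and 18.6 CPM in control 1 to 3. The highest loaded library was below the lowest control library, and Sqle fell by 0.44 ± 0.10 (log2 ± SE, adjusted p = 0.00224, edgeR). Lathosterol oxidase (Sc5d, ENSRNOG00000008305), which puts in the ring double bond of the penultimate step, was at 28.1, 25.0 and 27.7 CPM in loaded, against 37.6, 37.8 and 37.5 CPM in control libraries. The control libraries were within a narrow range and the loaded ones lower and more spread, a fall of 28.4% (-0.48 ± 0.07, adjusted p = 6.17e-05). The reductase Dhcr7, which makes cholesterol from 7-dehydrocholesterol, was at 10.1, 8.77 and 10.5 CPM in loaded, against 13.7, 12.9 and 12.9 CPM in control libraries. Dhcr7 fell by 0.43 ± 0.11 (adjusted p = 0.00678) with no overlap of the groups. These 3 genes had the largest changes of this stretch, but Nsdhl came close, at -0.38 ± 0.11. Whether fold changes differ between its genes was not tested.

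The other called genes act on lanosterol and the sterols after it. The demethylase Cyp51, which removes the first methyl group of lanosterol, fell by 0.35 ± 0.05 (log2 ± SE), at 43.3 ± 1.11 CPM in loaded and 55.2 ± 0.357 CPM in control libraries (adjusted p = 0.000112, edgeR). The C4 demethylation enzymes Msmo1 and Nsdhl fell by 0.36 ± 0.09 and 0.38 ± 0.11 (adjusted p = 0.00436 and 0.0123), and the sterol isomerase Ebp fell by 0.32 ± 0.08 (adjusted p = 0.00777). For all 4 genes the groups did not overlap. Nsdhl lost its call without control 1 (adjusted p = 0.0563).

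The remaining 4 genes of this stretch were not called. Squalene synthase (Fdft1), the entry to the sterol branch, was at 34.1 ± 2.07 CPM in loaded and 37.3 ± 0.561 CPM in control libraries (log2 difference -0.13 ± 0.06, adjusted p = 0.147, edgeR). The sterol C14 reductase Tm7sf2 was at 5.22 ± 0.62 CPM in loaded and 6.76 ± 0.568 CPM in control libraries (-0.37 ± 0.15, adjusted p = 0.0741), and was called without loaded 3 (adjusted p = 0.0479). In both genes the groups did not overlap in CPM. In the authors' FPKM those of Fdft1 overlapped, at 10 to 11.3 in loaded and 10.5 to 11.1 in control libraries. Lanosterol synthase (Lss), which closes the sterol rings, was at 8.43, 7.22 and 13.9 CPM in loaded, against 11.9, 11.7 and 10.9 CPM in control libraries. A single loaded library, loaded 3, was above every control, and without it Lss had a difference of -0.56 and was called (adjusted p = 0.00564, against 0.488 with it). The keto-sterol reductase Hsd17b7 was low, at 1.25, 2.77 and 1.04 CPM in loaded, against 1.80, 2.22 and 2.22 CPM in control libraries. Loaded 2 stood above the controls there, and without it the difference was -0.86 (adjusted p = 0.0387, against 0.52 with it).

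Among the 5 SREBP genes 2 fell and 1 rose, with a median of -0.18. These counts are 40% lower and 20% higher, beside 18.0% lower and 17.9% higher over all features. The share of rises was near the background, and a share in 5 genes rests on few calls. Srebf1 (ENSRNOG00000003463), which encodes the SREBP-1 proteins that mainly drive fatty acid synthesis, stood at 25.6, 28.2 and 26.5 CPM in loaded, against 35.8, 35.0 and 35.1 CPM in control libraries. All loaded libraries were lower, and Srebf1 fell by 0.40 ± 0.07 (log2 ± SE, adjusted p = 0.000302, edgeR). Srebf2, which encodes the main activator of sterol genes, was at 83.5, 71.1 and 73.7 CPM in loaded, against 90.2, 86.3 and 82.9 CPM in control libraries. Loaded 1 was above control 3, so the groups overlapped, and the fall of 0.18 ± 0.06 was small (adjusted p = 0.0321). The Srebf2 call was lost without loaded 2, loaded 3, control 1 or control 2 (adjusted p = 0.0694 to 0.136) and with library totals (-0.11, adjusted p = 0.267).

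Of the genes for the INSIG retention proteins, Insig2 rose and Insig1 was not called. Insig2 (ENSRNOG00000002478) was at 12.4, 11.0 and 11.3 CPM in loaded, against 7.58, 9.23 and 8.77 CPM in control libraries. It rose by 35.4% with no overlap (log2 0.44 ± 0.12, adjusted p = 0.0108, edgeR), and without control 1, its lowest control, the rise was 0.36 and missed the threshold (adjusted p = 0.0621). Insig1, itself a well-known SREBP target gene, was at 34.8, 30.6 and 37.7 CPM in loaded, against 40.2, 37.6 and 40.5 CPM in control libraries. It was not called, with a difference of -0.20 ± 0.08 (adjusted p = 0.0546), and was called without loaded 3, its highest loaded library (adjusted p = 0.0153). Whether the fold changes of Insig2 and Insig1 differ was not tested. Scap, the escort protein gene, was at 21.5, 28.3 and 26.4 CPM in loaded, against 26.7, 29.1 and 29.3 CPM in control libraries. Its groups overlapped and it was not called (-0.16 ± 0.10, adjusted p = 0.223).

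**Figure D2:**
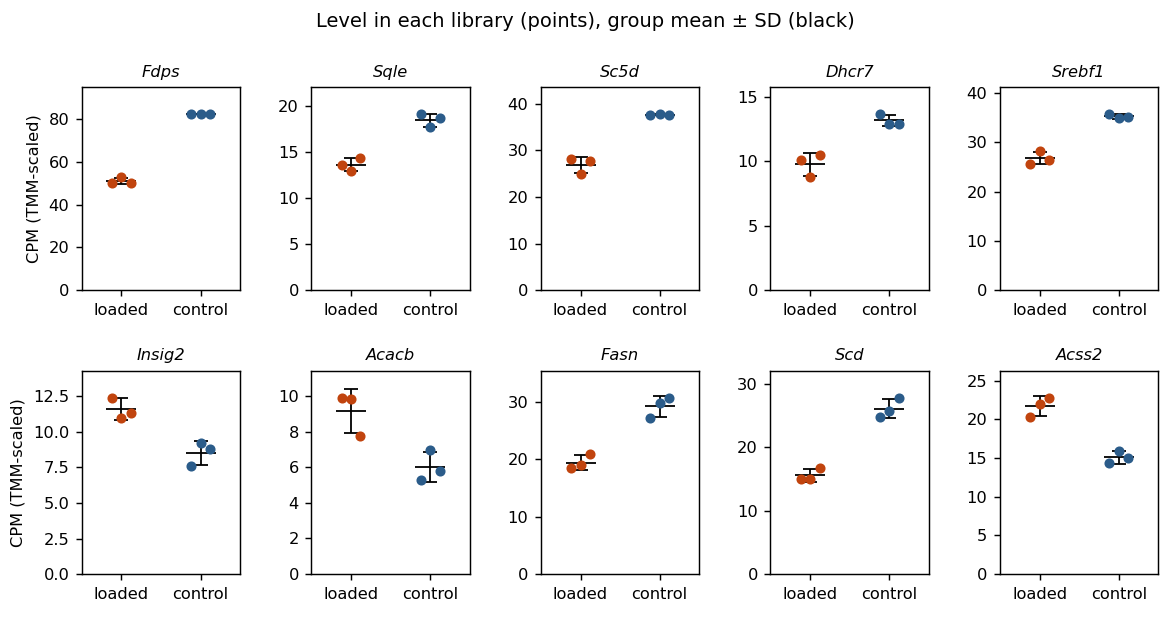
CPM (y axis, from 0, TMM-scaled) of Srebf1 and the 9 called members whose log2 fold change was at least 0.4 in size, in the 3 loaded (orange) and 3 control (blue) libraries; points are libraries, long bars group means and whiskers SD. In none of the 10 genes do the groups overlap, and Insig2, Acacb and Acss2 are higher in loaded.

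Of the 7 fatty acid synthesis genes 2 fell and 2 rose, with a median of -0.40. These counts are 28.6% in each direction, beside 18.0% lower and 17.9% higher over all features, a gap that in 7 genes comes to about 1 gene each way. Fatty acid synthase (Fasn, ENSRNOG00000045636), which builds palmitate, was at 18.4, 19.0 and 20.9 CPM in loaded, against 27.2, 29.7 and 30.7 CPM in control libraries. Stearoyl-CoA desaturase (Scd, ENSRNOG00000013552), which makes monounsaturated fatty acids, was at 15.0, 15.0 and 16.7 CPM in loaded, against 24.8, 25.7 and 27.8 CPM in control libraries. In both genes the groups were well apart, and Fasn fell by 33.4% (log2 -0.59 ± 0.08, adjusted p = 6.48e-05, edgeR) and Scd by 40.4% (-0.75 ± 0.09, adjusted p = 1.15e-05), the largest fall among the members. Scd belongs to a family of similar genes, and reads may be shared between its copies. Its more abundant paralogue Scd2 was at 115 ± 3.33 CPM in loaded and 124 ± 3.47 CPM in control libraries. Scd2 was not called (-0.10 ± 0.05, adjusted p = 0.105, edgeR), so the fall of Scd does not stand for all desaturase RNA.

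Acetyl-CoA carboxylase 2 (Acacb, ENSRNOG00000000658) is the mitochondrial form, whose malonyl-CoA restrains fatty acid oxidation and which is prominent in muscle. It stood at 9.90, 9.82 and 7.74 CPM in loaded, against 5.30, 6.95 and 5.80 CPM in control libraries. The groups did not overlap, and Acacb rose by 52% (log2 0.60 ± 0.15, adjusted p = 0.00613, edgeR). The cytosolic form Acaca, which supplies malonyl-CoA for synthesis, was at 3.99, 2.00 and 3.16 CPM in loaded, against 3.12, 4.85 and 4.12 CPM in control libraries. Its groups overlapped and it was not called (-0.40 ± 0.25, adjusted p = 0.249). Whether the fold changes of Acacb and Acaca differ was not tested. Summed CPM of 17 skeletal muscle genes was 21100 to 22000 in loaded and 8970 to 9120 in control libraries, and all 17 rose. Its part in the Acacb result was not tested.

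Acetyl-CoA, the substrate of both pathways, is made from citrate by Acly and from acetate by Acss2. Acss2 (ENSRNOG00000018755) was at 20.3, 22 and 22.8 CPM in loaded, against 14.3, 15.9 and 15.0 CPM in control libraries. It rose by 44% with each loaded library above each control (log2 0.53 ± 0.09, adjusted p = 0.000431, edgeR). Acly was at 77.1 ± 3.19 CPM in loaded and 82.5 ± 2.75 CPM in control libraries, and was not called (-0.10 ± 0.05, adjusted p = 0.17). The elongase Elovl6, which extends palmitate, had only 4, 18 and 23 counts in loaded and 22, 25 and 34 counts in control libraries, and was not called (-0.64 ± 0.56, adjusted p = 0.409). Loaded 1 was far below the other loaded libraries, and without it the difference was -0.20 (adjusted p = 0.792). The carrier Stard4, which moves cholesterol between membranes, was at 8.85 ± 0.929 CPM in loaded and 7.39 ± 1.32 CPM in control libraries (0.26 ± 0.15, adjusted p = 0.215) and was not called.

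Levels per length, in the authors' FPKM, put Fdps first in both groups, at 33.0 ± 1.53 in loaded and 52.8 ± 1.31 in control libraries (SD, n = 3 each). Next in loaded libraries came Ebp (19.3 ± 1.74), Acly (17.4 ± 1.17), Pmvk (17.3 ± 1.90), Srebf2 (14.8 ± 1.61), Insig1 (13.8 ± 1.74), Cyp51 (12.6 ± 0.533) and Insig2 (11.3 ± 1.03), where neighbours in this order differed by less than the sum of their SDs. The lowest members in loaded libraries were Elovl6 (0.179 ± 0.114), Hsd17b7 (0.409 ± 0.22), Acaca (0.455 ± 0.172) and Acacb (0.984 ± 0.128), all below 1 FPKM in both groups.

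**Figure D3:**
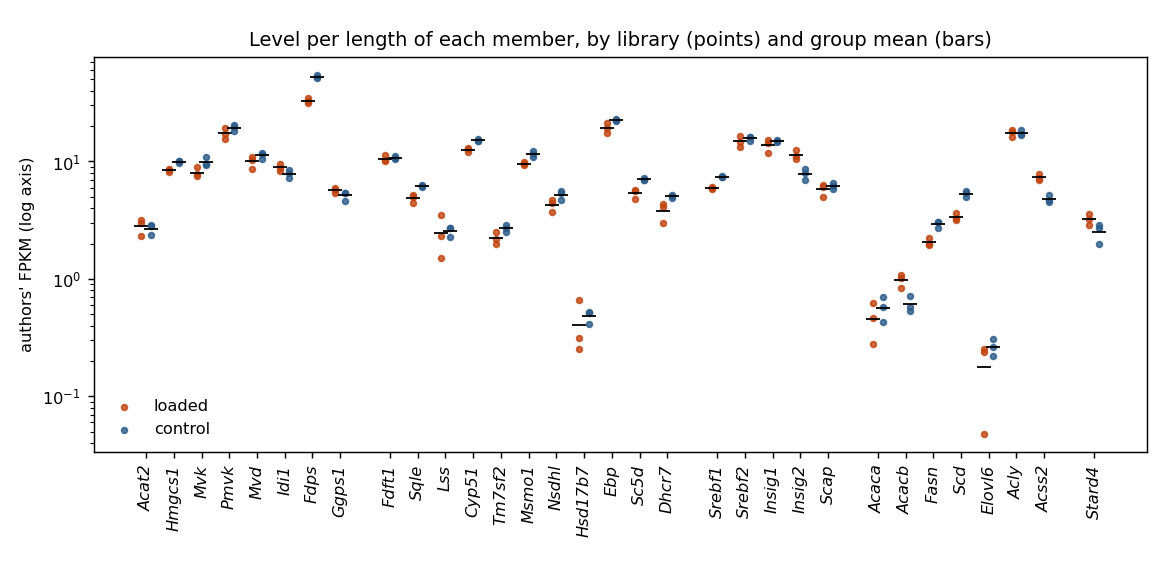
The authors' FPKM (y axis, log scale) of each member (x axis, in pathway order) in the 3 loaded (orange) and 3 control (blue) libraries, with group means as bars. Fdps is the highest member in both groups, at means of 33.0 in loaded and 52.8 in control, and Elovl6 the lowest, with 1 loaded library far below the others.

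Ratios of FPKM were taken between paired members within each library. The pairs were chosen after their values were seen and carry no test. Most set a member that rose over 1 that fell or was not called, so the separation of the groups follows in part from that choice. Ggps1 over Fdps was 0.182, 0.165 and 0.172 in loaded, against 0.103, 0.0996 and 0.0897 in control libraries. Insig2 over Insig1 was 0.871, 0.876 and 0.729 in loaded, against 0.460, 0.598 and 0.528 in control libraries. In both ratios every loaded library was above every control. Acss2 over Acly was 0.381, 0.448 and 0.44 in loaded, against 0.267, 0.280 and 0.275 in control libraries. Acacb over Acaca was 1.74, 3.65 and 1.82 in loaded, against 1.23, 1.02 and 1.00 in control libraries. Its value of 3.65 in loaded 2 rests on 57 Acaca counts. Srebf1 over Srebf2 was 0.351, 0.453 and 0.411 in loaded, against 0.455, 0.467 and 0.492 in control libraries, the only ratio of the 5 that was lower in loaded.

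The members were also compared as sums. All 32 together made up 713, 691 and 727 CPM in loaded, against 839, 847 and 846 CPM in control libraries. The mevalonate sum was 183 to 185 CPM in loaded and 223 to 229 CPM in control libraries, and the squalene-to-cholesterol sum 188 to 209 and 246 to 254 CPM. The SREBP sum was 169 to 178 CPM in loaded and 197 to 200 CPM in control libraries, and the fatty acid sum 142 to 150 and 156 to 169 CPM. Each sum was lower in every loaded library than in every control on this TMM scale. As a percent of all counts the fatty acid sum overlapped, at 0.0155%, 0.0142% and 0.0154% in loaded, against 0.0149%, 0.0168% and 0.0161% in control libraries. The loaded libraries varied more among themselves, with a median coefficient of variation over the members of 7.98% in loaded and 5.73% in control libraries. Loaded 2 was the lowest loaded library for 15 of the 32 members and loaded 3 the highest for 16.

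Promoter sequences from RefSeq (assembly GRCr8, 250 bases before to 50 after the gene start) were found for 25 members, Srebf1 having 2 entries. Fdps, Scd and Sc5d are shown as the members with the largest falls and an entry, Acacb and Acss2 as those with the largest rises, and Mvk and Nsdhl as those with the most CCAAT boxes. CCAAT is the core of the site of NF-Y, a factor known to act with SREBP at sterol genes. Each sequence runs 5′ to 3′ along the gene, and capitals mark CCAAT or, where it lies on the other strand, ATTGG.
Fdps, chr2:176804767-176805066, minus strand: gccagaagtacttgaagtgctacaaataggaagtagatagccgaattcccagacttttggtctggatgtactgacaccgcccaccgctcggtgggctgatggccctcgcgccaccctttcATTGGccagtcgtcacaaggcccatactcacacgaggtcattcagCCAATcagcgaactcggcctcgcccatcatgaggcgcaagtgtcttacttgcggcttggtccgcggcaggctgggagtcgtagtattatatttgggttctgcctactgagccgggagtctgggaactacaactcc
Scd, chr1:253231682-253231981, minus strand: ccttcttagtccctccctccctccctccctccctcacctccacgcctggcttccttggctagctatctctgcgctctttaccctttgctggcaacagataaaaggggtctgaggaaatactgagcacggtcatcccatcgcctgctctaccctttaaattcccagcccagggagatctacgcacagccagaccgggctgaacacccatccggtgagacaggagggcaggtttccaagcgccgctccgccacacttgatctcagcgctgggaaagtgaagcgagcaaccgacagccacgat
Sc5d, chr8:51538228-51538527, minus strand: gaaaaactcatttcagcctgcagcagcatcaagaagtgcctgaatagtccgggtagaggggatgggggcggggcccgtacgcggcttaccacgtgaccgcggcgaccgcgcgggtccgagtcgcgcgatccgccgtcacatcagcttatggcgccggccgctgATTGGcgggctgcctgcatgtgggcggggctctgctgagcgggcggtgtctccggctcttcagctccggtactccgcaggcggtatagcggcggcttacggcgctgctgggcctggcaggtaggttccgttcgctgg
Acacb, chr12:48138165-48138464, minus strand: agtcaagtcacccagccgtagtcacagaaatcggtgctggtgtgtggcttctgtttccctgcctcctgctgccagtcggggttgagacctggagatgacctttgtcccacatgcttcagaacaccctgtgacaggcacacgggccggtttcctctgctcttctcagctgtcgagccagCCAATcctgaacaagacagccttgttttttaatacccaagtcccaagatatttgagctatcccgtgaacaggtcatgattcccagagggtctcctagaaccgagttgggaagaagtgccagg
Acss2, chr3:164464453-164464752, plus strand: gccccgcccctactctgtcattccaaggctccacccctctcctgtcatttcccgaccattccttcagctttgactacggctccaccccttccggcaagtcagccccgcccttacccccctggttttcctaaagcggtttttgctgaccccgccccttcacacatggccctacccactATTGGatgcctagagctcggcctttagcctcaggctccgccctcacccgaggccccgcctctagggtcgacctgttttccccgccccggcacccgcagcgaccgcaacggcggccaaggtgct
Mvk, chr12:47819454-47819753, minus strand: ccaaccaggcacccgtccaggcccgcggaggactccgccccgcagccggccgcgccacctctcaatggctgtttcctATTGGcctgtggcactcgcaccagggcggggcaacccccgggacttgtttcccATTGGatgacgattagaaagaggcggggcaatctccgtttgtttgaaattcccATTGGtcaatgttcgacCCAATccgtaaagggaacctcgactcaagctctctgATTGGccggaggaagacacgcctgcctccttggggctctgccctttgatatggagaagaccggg
Nsdhl, chrX:155817110-155817409, plus strand: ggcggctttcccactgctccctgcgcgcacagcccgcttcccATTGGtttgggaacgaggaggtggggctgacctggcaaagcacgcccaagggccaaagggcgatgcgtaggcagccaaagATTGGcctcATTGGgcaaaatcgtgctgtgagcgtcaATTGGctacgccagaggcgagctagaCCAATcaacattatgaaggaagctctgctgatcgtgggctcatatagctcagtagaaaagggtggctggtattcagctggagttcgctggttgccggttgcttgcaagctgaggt

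Copies of CCAAT, counted on both strands, numbered 2 in the Fdps window, 0 in that of Scd, 1 each in those of Sc5d, Acacb and Acss2, and 5 each in those of Mvk and Nsdhl. At least 1 copy was present for 20 of 25 members (80%), where 37.5% of the 33469 promoters in the table held it. By call, these were 10 of the 13 members that fell, 4 of the 4 that rose and 6 of the 8 that were not called. At least 2 copies were present for 11 of 25 (44%, beside 11.2% of all promoters). At that number of copies they were 8 of the 13 that fell, 0 of the 4 that rose and 3 of the 8 that were not called, so how the motif fell across the calls depended on the number of copies asked for. The Sp1 box GGGCGG was present for 19 of 25 (76%, beside 33.1%) and the E box CACGTG for 3 of 25 (12%, beside 6.42%). The sterol element TCACNCCAC was found in none of the 25 windows (1.12% of all promoters), which says only that these letters are not in these windows. CCAAT on the other strand can share end bases with the Sp1 box, and a match describes the sequence only. Stard4, Fasn, Sqle, Fdft1, Acaca, Pmvk and Elovl6 had no entry.

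Genes around the pathway were counted from lists of their own, with the background of 18.0% lower and 17.9% higher as above. The list nearest to the SREBP genes holds their cleavage enzymes and the machinery of sterol-regulated degradation. Of its 12 genes 6 fell and 1 rose, with a median of -0.19. That is 50% lower, above the background, and 8.33% higher, below it. Erlin1, which helps hold SREBP in the endoplasmic reticulum, fell by 0.38 ± 0.06, at 30.5 ± 1.21 CPM in loaded and 39.6 ± 1.32 CPM in control libraries (adjusted p = 0.00029, edgeR). Mbtps1, the protease of the first SREBP cleavage, fell by 0.26 ± 0.05 (adjusted p = 0.00094), at 55.8 ± 0.528 and 66.8 ± 2.09 CPM in loaded and control libraries. The ubiquitin ligase gene Rnf145 fell by 0.22 ± 0.05 (adjusted p = 0.00448), a call that scaling to plain library totals took away (-0.14, adjusted p = 0.0725). The count of 6 falls was 3 without control 1 or without control 2.

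Among 14 genes that use isoprenoids 4 fell and 2 rose, with a median of -0.05. These shares are 28.6% lower and 14.3% higher, beside 18.0% and 17.9% over all features. The share of rises was near the background, and that of falls was above it by few genes. The protease Zmpste24, which processes farnesylated prelamin A, fell by 0.39 ± 0.08 (adjusted p = 0.00199, edgeR), and Dhdds, a subunit of the enzyme that makes dolichol chains, by 0.29 ± 0.07 (adjusted p = 0.00333). Pdss2, a subunit of the synthase for the coenzyme Q tail, rose by 0.41 ± 0.10, at 14.9 ± 0.83 CPM in loaded and 11.1 ± 0.572 CPM in control libraries (adjusted p = 0.00559). The prenyltransferase subunits that attach isoprenoids to proteins went both ways. Fnta and Rabggta fell by 0.23 ± 0.08 and 0.27 ± 0.10 (adjusted p = 0.03 and 0.0384), Rabggtb rose by 0.17 ± 0.05 (adjusted p = 0.0172), and Fntb (-0.24 ± 0.10, adjusted p = 0.082) and Pggt1b (0.10 ± 0.14, adjusted p = 0.609) were not called. The Fnta call was lost without loaded 2 or any 1 control (adjusted p = 0.0525 to 0.151), that of Rabggta without any library but loaded 1 (adjusted p = 0.073 to 0.126), and that of Rabggtb without control 2 or control 3 (adjusted p = 0.0843 and 0.0613). Library totals and DESeq2 also ended the calls of Fnta (adjusted p = 0.183 and 0.0559) and Rabggta (adjusted p = 0.164 and 0.0595), and limma-voom that of Fnta (adjusted p = 0.0522). Over the isoprenoid list, falls numbered 2 without loaded 2 or any 1 control, and rises numbered 1 without control 2 or control 3 and 3 without control 1. Of 9 tested genes that supply electrons to, or partner with, the sterol enzymes 1 fell and 0 rose by edgeR, DESeq2 and limma-voom, with 1 rise at an unadjusted p under 0.05 and 1 call without loaded 1. By edgeR these shares, 11.1% lower and 0% higher, were both below the background. The fall was that of Tmem97, a sterol-binding membrane protein gene, at 34.8 ± 4.70 CPM in loaded and 41.9 ± 1.13 CPM in control libraries (-0.27 ± 0.08, adjusted p = 0.0208, edgeR). Its call was lost with library totals (adjusted p = 0.0692) and without loaded 1, loaded 3, control 2 or control 3 (adjusted p = 0.0614 to 0.0853). The sterol reductase gene Lbr was not analysed here.

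Sterol export and uptake were not uniformly lower. Of 9 genes of the liver X receptors and sterol efflux 2 fell and 2 rose, with a median of 0.12. These shares, 22.2% in each direction, were near the background of 18.0% lower and 17.9% higher. Abca1, the pump that loads cholesterol onto lipoproteins, rose by 0.75 ± 0.11, at 14.2 ± 1.58 CPM in loaded and 8.44 ± 0.126 CPM in control libraries (adjusted p = 0.000124, edgeR). The receptor gene Nr1h3 was at 17.7 ± 1.91 CPM in loaded and 17.5 ± 0.474 CPM in control libraries (adjusted p = 0.932). Lpcat3, a phospholipid-remodelling enzyme, and Pltp, a phospholipid transfer protein, both known liver X receptor targets like Abca1, fell by 0.48 ± 0.06 and 0.38 ± 0.05 (adjusted p = 8.42e-06 and 4.75e-05). The other rise was that of Abca7, by 0.36 ± 0.06 (adjusted p = 0.000363). Abcg1 (0.17 ± 0.08, adjusted p = 0.116) and Mylip (0.12 ± 0.06, adjusted p = 0.105) were not called. In both, every loaded library was above every control. Of 17 genes of uptake, transport, esterification and oxidation 6 fell and 2 rose, with a median of 0.02. That is 35.3% lower, above the background, and 11.8% higher, below it. The lipoprotein receptor genes went both ways. Scarb1 and Lrp1 fell by 0.84 ± 0.06 and 0.53 ± 0.06 (adjusted p = 3.02e-08 and 5.24e-06), whereas Vldlr, which binds triglyceride-rich lipoproteins, rose by 0.93 ± 0.13, at 14 ± 2.07 CPM in loaded and 7.36 ± 0.678 CPM in control libraries (adjusted p = 5.74e-05). The lysosomal lipase Lipa, which frees cholesterol from its esters, fell by 0.62 ± 0.06 (adjusted p = 6.22e-07). Without loaded 3, control 1 or control 3 that list had 1 rise.

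Genes next to fatty acid synthesis were counted in the same way. Of 18 tested genes of elongation, desaturation and lipogenic cofactors 6 fell and 4 rose, with a median of -0.09. That is 33.3% lower, above the background of 18.0%, and 22.2% higher, near the background of 17.9%. Thrsp, a small regulator of lipogenesis abundant in fat, fell by 1.59 ± 0.10 and stood at 6.83 ± 0.437 CPM in loaded and 20.5 ± 0.44 CPM in control libraries (adjusted p = 1.87e-08, edgeR). The elongase Elovl1 fell by 0.31 ± 0.05 (adjusted p = 0.00024), whereas malic enzyme (Me1), which makes NADPH, rose by 0.33 ± 0.06, at 92.6 ± 5.13 CPM in loaded and 73.5 ± 3.84 CPM in control libraries (adjusted p = 0.000333). Without control 2 or control 3 this list had 2 rises. Of 20 genes of triglyceride and phospholipid synthesis 3 fell and 4 rose, with a median of 0, and these shares of 15% lower and 20% higher were close to the background. The falls were Dgat2, the last enzyme of triglyceride synthesis, by 0.57 ± 0.04, Acsl5, which activates fatty acids, by 0.42 ± 0.04, and Agpat2, which adds the next acyl chain to lysophosphatidic acid, by 0.57 ± 0.07 (adjusted p = 4.81e-08, 2.15e-06 and 2.79e-05). The rises included paralogues of these enzymes, Acsl3 by 0.64 ± 0.10 and Agpat1 by 0.37 ± 0.06 (adjusted p = 0.000173 and 0.000149). The other rises were Pcyt2, of phosphatidylethanolamine synthesis, by 0.48 ± 0.12 (adjusted p = 0.00616) and Gpat4, an acyltransferase of the opening step, by 0.23 ± 0.08 (adjusted p = 0.0265). Gpat4 lost its call without loaded 3, control 2 or control 3 (adjusted p = 0.0511 to 0.137) and with DESeq2 (adjusted p = 0.0534).

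**Figure D4:**
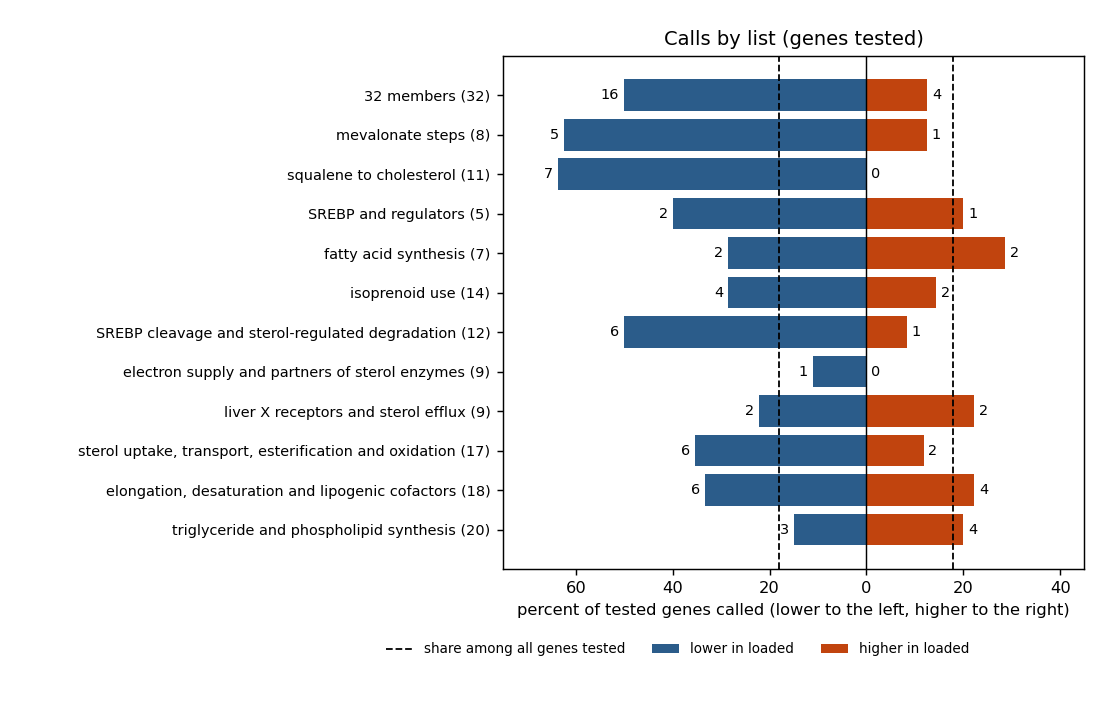
Percent of tested genes called lower (blue, left of 0) or higher (orange, right of 0) in loaded knees (x axis) for the members, their step groups and the 7 surrounding lists (y axis, tested genes in brackets); numbers at the bars are genes, and dashed lines mark the shares among all features, 18.0% lower and 17.9% higher. The bars for lower calls of the members, the mevalonate and squalene-to-cholesterol groups and the cleavage list are the longest, at 50% or more.

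Some lists of cell type markers were lower in loaded libraries, as most members were, and others were higher. Summed CPM of 14 adipocyte genes was 429 to 460 in loaded and 600 to 609 in control libraries, and 10 of the 14 fell and 0 rose. In the neutrophil and marrow myeloid list 10 of 15 tested genes fell and 2 rose, with sums of 33700 to 40300 CPM in loaded and 48000 to 52500 CPM in control libraries. Among 24 cell cycle genes 19 fell and 0 rose (2340 to 2410 CPM in loaded, 2910 to 2960 CPM in control). Rises in the adipocyte and cell cycle lists were also 0 at an unadjusted p under 0.05 and by DESeq2 and limma-voom. Of 14 tested macrophage genes 7 fell and 5 rose (11600 to 11800 CPM in loaded, 15700 to 16200 CPM in control), and Marco was at 0 in all 6 libraries. Over all features 18.0% fell and 17.9% rose, beside which these and the following counts stand. Of 16 erythroid genes 6 fell and 1 rose, and of 11 endothelial genes 5 fell and 2 rose (18.2% higher, at the background). The erythroid sums, 124000 to 139000 CPM in loaded and 139000 to 155000 CPM in control, and the endothelial sums, 175 to 195 and 193 to 208 CPM, met or overlapped. In the other direction, 12 of 16 osteoblast and osteocyte genes rose and 1 fell (7730 to 8120 CPM in loaded, 3960 to 3980 CPM in control). Of 16 chondrocyte genes 9 rose and 2 fell (2890 to 3020 CPM in loaded, 2080 to 2180 CPM in control), and of 11 B cell genes 4 rose and 1 fell, 9.09% lower (344 to 358 CPM in loaded, 287 to 293 CPM in control). Cfd, S100a9, Pcna and Lyz2, the most abundant genes of the adipocyte, myeloid, cell cycle and macrophage lists, fell themselves, and Hbb of the erythroid list was not called. The falls among the members thus stood beside lower adipocyte, marrow myeloid, cell cycle and macrophage sums. They also stood beside higher skeletal muscle, osteoblast, chondrocyte and B cell sums. The part of these lists in the members' results was not tested.

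**Figure D5:**
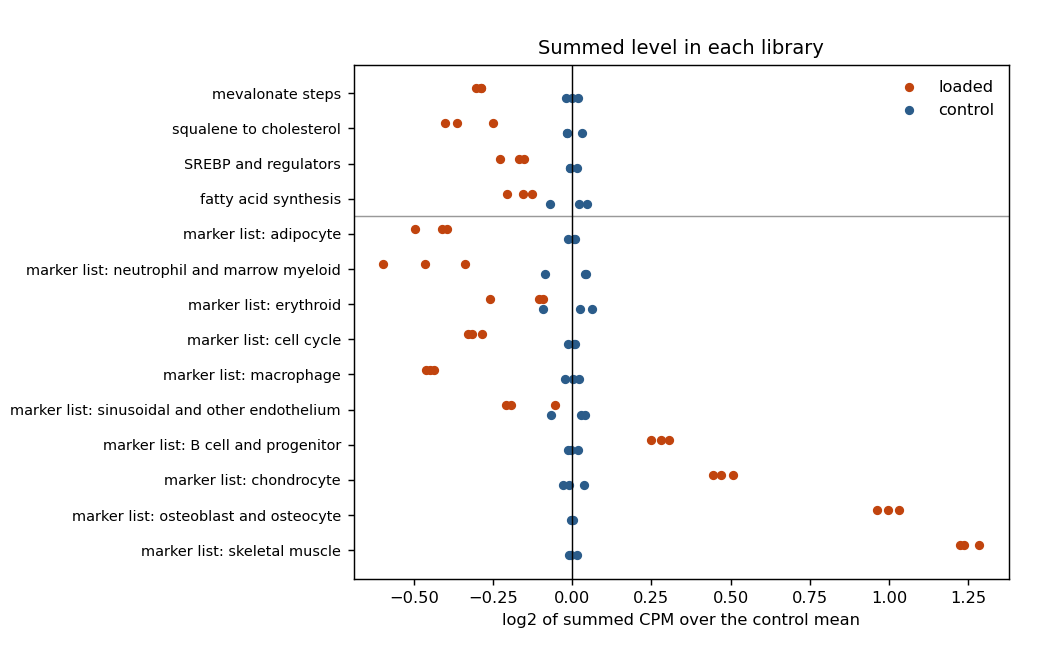
Log2 of the summed CPM of each list in a library over the control mean (x axis) for 4 step groups of the members (above the line) and 10 marker lists (below it); orange points are the 3 loaded and blue points the 3 control libraries. The 4 step groups lie left of 0 in all loaded libraries, as do the adipocyte, myeloid, cell cycle and macrophage lists, while the muscle, osteoblast, chondrocyte and B cell lists lie right of it.

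In the authors' deposited table, 31 of the 32 members had a DESeq2 comparison. At a false discovery rate under 0.05 that table held 16 members lower and 4 higher in loaded. None of them passed the authors' own thresholds of 0.01 and a 2-fold change.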

How the data were processed

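RNA was extracted with TRIzol and made into mRNA libraries, per the labels' protocols. The deposited table gives raw whole-number counts per gene and, per the file headers, the authors' FPKM for each library. It also gives the authors' DESeq2 log2 fold change and false discovery rate (an adjusted p-value). The submitters' processing notes name HISAT2, DESeq2 and the mouse build mm10, whereas the identifiers are rat Ensembl genes, so the aligned build is uncertain and no coordinates come from the table. Counting tool and strand setting were not given in the sources used, so that overlapping or near-identical genes may share reads.

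From its 26991 lines, 10 that held spilled annotation text were removed. Counts were tested with edgeR 4.0.16 in R 4.3.3: filterByExpr, TMM scaling, robust quasi-likelihood F test with no block for replicates, Benjamini-Hochberg adjustment, and calls under 0.05. SE is the log2 fold change over the square root of F, and CPM uses TMM-scaled library sizes. The pipeline was tested on simulated data. FPKM values served for levels between genes and had no test. No exact permutation test is reported, since 0.1 is the smallest two-sided p that 3 libraries a group allow.

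Members and lists were chosen with earlier results of these data known. Values in every library are given for called members with a log2 fold change of at least 0.4 in size and for the 5 SREBP genes. From each surrounding list the called genes with the 3 smallest adjusted p were named, with Lbr, Nr1h3 and Abca1 in any case, and from each marker list the most abundant gene could be. Lss, Hsd17b7, Acaca and Elovl6 were given by library after their values were seen. Marco, the 5 prenyltransferase genes, Vldlr, Acsl3, Agpat1, Pcyt2 and Gpat4 were also named after their values were seen. The same holds for Scd2, Abca7, Abcg1 and Mylip. Alternatives were DESeq2 1.42.0, limma-voom (limma 3.58.1), size factors of the DESeq2 type, library totals, no filter, a stricter filter (1 CPM in 3 libraries), a replicate block, each library left out, and thresholds of 0.01 and 0.1. Protein sequences were not used here.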

Additional observations from a re-analysis of the deposited data

How the results depend on the processing

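Over 13 alternatives other than the thresholds, 11 of the 16 lower calls (Hmgcs1, Fdps, Sqle, Cyp51, Msmo1, Ebp, Sc5d, Dhcr7, Srebf1, Fasn and Scd) and 2 of the 4 higher calls (Acacb and Acss2) were kept in every alternative. Of 415 member values, 380 kept direction and call, 26 lost the call, 6 gained it and 3 changed sign. The 3 were those of Acat2, not called in any: 0.05 with library totals, and -0.14 to 0.10 with a library left out, above 0 without loaded 3 (0.10) and control 3 (0.04). Nr1h3, also not called, was at -0.06 to 0.09 with a library left out, and not above 0 without loaded 1 (-0.06), loaded 2 (0) and control 2 (-0.01). Library totals shifted the median of all features by 0.08 (log2) and made 36.7% of all calls lower, against 50.1% with TMM; among member calls 75% were then lower, against 80%, with 12 lower and 4 higher. Member counts were 14 lower with DESeq2, 11 lower and 3 higher at 0.01, and 12 to 17 lower and 3 to 4 higher with a library left out; all calls then numbered 4645 to 5614. The members' median was -0.34 to -0.26 with a library left out.

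Falls in the mevalonate group numbered 3 with DESeq2, 2 with library totals, 2 at 0.01 and 2 to 4 with a library left out (2 without control 2), and rises 0 to 1. SREBP falls numbered 1 with library totals, 1 at 0.01 and 1 to 2 with a library left out, and rises 0 at 0.01 and 0 to 1. Isoprenoid falls were 2 with DESeq2, library totals and 0.01, and 2 to 4 with a library left out, and rises 1 at 0.01 and 1 to 3. Cleavage falls were 2 with library totals, 3 at 0.01 and 3 to 6 with a library left out. Electron-supply falls were 0 with library totals and at 0.01, 2 with no filter, the block and 0.1, and 0 to 1 with a library left out (0 without loaded 3 or control 3), and rises 2 with library totals, 1 at 0.1 and 0 to 1 (1 without loaded 1). Liver X receptor rises were 4 with library totals. Uptake rises were 1 at 0.01 and 1 to 2 with a library left out. Elongation rises were 2 with DESeq2, the block and 0.01, and 2 to 3 with a library left out. The cause of these changes was not tested.

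The replicate numbers did not pair the libraries: same-numbered deviations correlated at -0.01, 0.05 and 0.02. With the replicate block 2694 features were called lower and 2655 higher, and the members had 16 lower and 4 higher calls, Mvd losing its call (adjusted p = 0.0627) and Insig1 gaining one (adjusted p = 0.0438). Elovl6 had 4 to 34 counts a library and a difference of -0.99 to -0.20 over its alternatives, none of which called it.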
